A study of Mus musculus with 8 samples.

Results

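Transcripts of 9 genes for homeostatic chemokines and their receptors were examined in mouse lung: the ligands Cxcl12, Cxcl13, Cxcl14, Cxcl16 and Cx3cl1, the signalling receptors Cxcr4 and Cxcr6, and the atypical receptors Ackr3 and Ackr1. The genes were taken by symbol from a list. They are 9 of the 55416 genes counted. All 9 were among the 18560 genes that had enough counts to be tested.

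Chemokines are small proteins that direct leukocytes through G protein-coupled receptors, and those called homeostatic are made in resting tissue as well as during inflammation. In the lung, Cxcl12 holds and positions leukocytes and progenitors through Cxcr4, Ackr3 takes up the same ligand without G protein signalling, and Ackr1 on venules and red cells binds many inflammatory chemokines. Cxcl16 and Cx3cl1 are made as membrane-anchored proteins, tether cells that carry Cxcr6 or Cx3cr1, and are released by metalloproteases.

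The study asked whether YW3-56, a small-molecule inhibitor of the protein arginine deiminase (PAD) family that the labels call a PAD4 inhibitor, alters inflammation in endotoxin shock. Female C57BL/6J mice, 6 to 8 weeks old, received lipopolysaccharide (LPS, bacterial endotoxin) at 35 mg/kg by intraperitoneal injection. Dual-treated mice received YW3-56 in DMSO at 10 mg/kg 0.5 h before LPS, and control mice received DMSO into the tail vein and then saline. A DMSO injection is not stated for the LPS group. RNA of the lung of 1 side was collected at 24 h from 3 control mice (numbered 1, 2 and 4), 3 LPS mice (1, 6 and 7) and 2 dual-treated mice (2 and 5). The study's RNA-seq analysis and the labels also have 2 dual-treated mice, although its methods speak of 3 for every group. Each library came from 1 mouse, and the mouse is the replicate.

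Each library held between 19061949 and 20908608 counts assigned to genes. Levels are CPM after TMM scaling of the libraries, whose factors were 1.06 to 1.08 in control, 0.810 to 0.930 in LPS and 1.09 to 1.11 in dual-treated lungs. Markers of lung tissue were abundant in every library: the summed level of 6 alveolar type 2 markers, led by Sftpc, was between 14289 and 37137 CPM, and that of 4 airway markers, led by Scgb1a1, between 23681 and 67232 CPM. No marker in the 20 cell-type lists used here was at 0 in all 8 libraries. LPS mice 6 and 7 stood apart in the summed level of 10 markers of squamous epithelium, led by Krt13. The sum was 789 and 2129 CPM there, against 2.97 CPM in LPS mouse 1 and 14.2 to 29.3 CPM in the other mice. Not all 10 rose: with LPS 7 were called higher and 1 lower, the latter being lowest in mice 6 and 7. The same pair of mice had 449 and 1187 CPM of 7 skeletal muscle markers, led by Acta1, against 4.86 to 18.9 CPM in the other 6. Without these 2 mice, 8 of the 9 chemokine and receptor genes passed the test between LPS and control, as many as with them, while 55.5% of all tested genes did. In each of the other comparisons 7 passed, beside 19% of all genes for dual treatment against control and 49.1% for dual treatment against LPS.

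A gene was called when its adjusted p-value by the edgeR quasi-likelihood test, Benjamini-Hochberg adjusted over all tested genes, was below 0.05. LPS changed 8 of the 9 genes relative to control, 6 upward and 2 downward, while 66.5% of all tested genes were called, 32.6% upward and 33.9% downward. Between dual-treated and LPS lungs 6 genes were called, 1 higher and 5 lower with YW3-56, against 59.1% of all genes, 31.7% higher and 27.4% lower. The background is so high in these comparisons that the counts say little about the 9 genes as a group. Between dual-treated and control lungs 8 genes were called, 5 higher and 3 lower, against 16.1% of all genes, 9.13% higher and 7.02% lower. This count fell to 4 when any control mouse or dual-treated mouse 2 was left out, and the share of all genes called fell as well, to 9.70%, 8.43% and 9.28% without control mouse 1, 2 or 4 and to 6.24% without dual-treated mouse 2. By the study's criterion, a fold change over 2 with an unadjusted p-value below 0.05, applied here to edgeR results where the study used DESeq2, the counts were 7 for LPS, 4 for dual treatment against control and 6 for dual treatment against LPS, where 40.1%, 10.5% and 35.3% of all genes met it.

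The median log2 fold change (log2FC) of the 9 genes was 1.03 for LPS against control, where the median of all tested genes was -0.01. It was 0.70 for dual treatment against control and -0.74 for dual treatment against LPS, beside medians of 0.0042 and 0.060 for all genes. With library size as the only scaling, 4336 genes were higher and 7832 lower with LPS, against 6046 and 6300 with TMM. Under the same scaling, 7889 were higher and 3225 lower with dual treatment than with LPS alone, against 5875 and 5085. The 3 comparisons share mice, so their values are given side by side and were not correlated. With 2 to 3 mice in a group, groups without overlap were common. They were found for 72% of all tested genes between LPS and control, and for 8 of the 9 genes. Between dual treatment and control the share was 52.2%, beside 8 of the 9, and between dual treatment and LPS 70.8%, beside 6. A lack of overlap given below for a gene is thus a description of its values only.

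**Figure D1:**
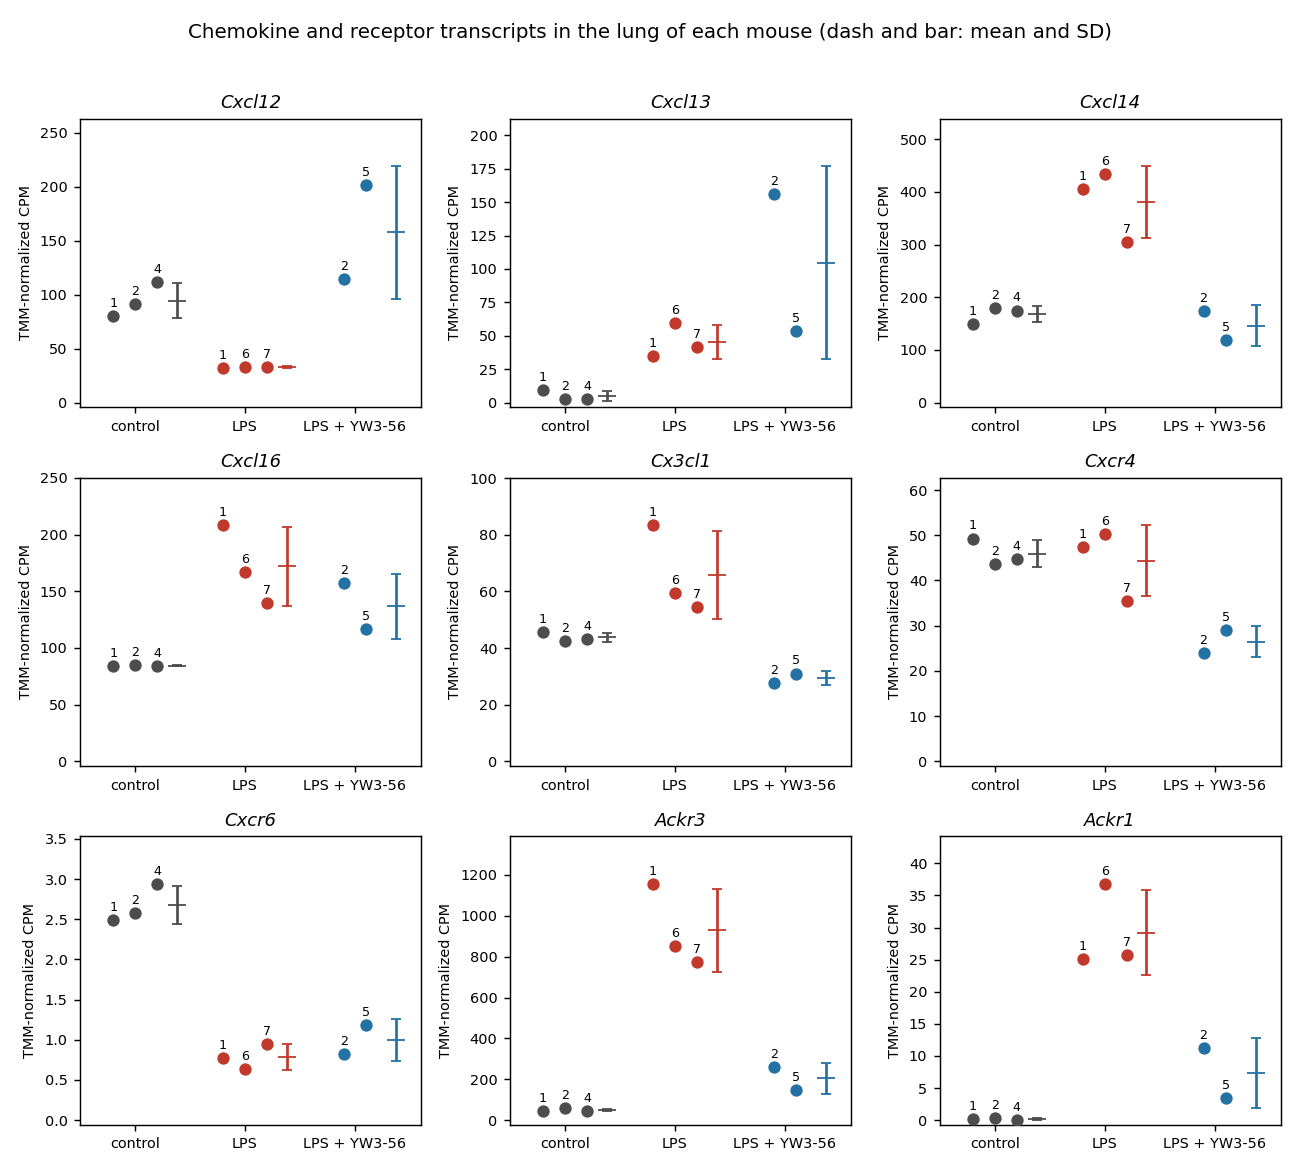
TMM-normalized CPM (vertical axis, linear, a scale of its own in each panel) of the 9 genes in the lung of each mouse, with control mice in grey, LPS mice in red and mice given LPS and YW3-56 in blue. Points carry the mouse number, and the dash and bar beside them are the mean and SD of 3, 3 and 2 mice. Ackr3 reached 1157 CPM in LPS mouse 1 and stayed at or below 56.9 CPM in control lungs, and Cxcl12 was near 33 CPM in each LPS mouse.

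**Figure D2:**
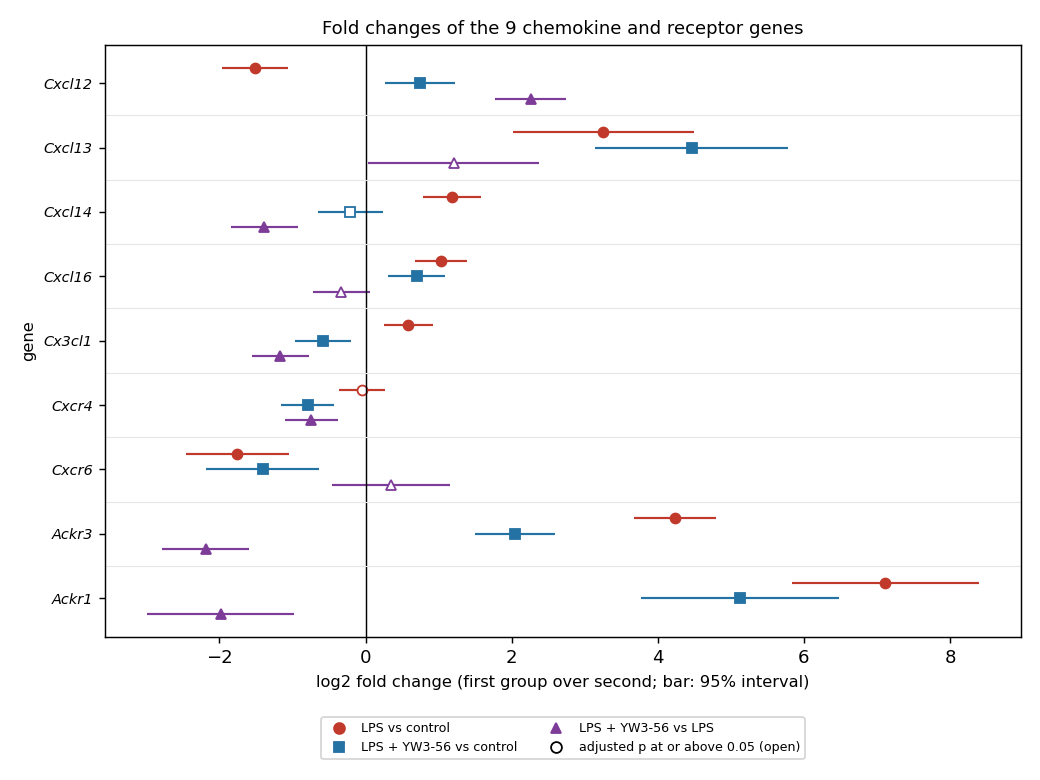
The log2FC (horizontal axis) of the 9 genes in the 3 comparisons, with 95% intervals as bars. Filled symbols passed an adjusted p-value of 0.05 and open symbols did not. Ackr1 and Ackr3 had the highest log2FC with LPS among the 9 genes, 7.11 and 4.23, and Cxcr4 lay near 0 in that comparison.

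Among the ligands, Cxcl12 (ENSMUSG00000061353, chromosome 6, 117144945 to 117158328 in GRCm39) was the only one that LPS lowered. It stood at 80.0, 91.4 and 112 CPM in control mice 1, 2 and 4, at 32.4, 33.2 and 33.3 CPM in LPS mice 1, 6 and 7, and at 114 and 201 CPM in dual-treated mice 2 and 5. The 3 LPS mice were nearly equal and below every other mouse, and dual-treated mouse 5 was the highest of all. By the edgeR quasi-likelihood test, Benjamini-Hochberg adjusted, Cxcl12 fell by 1.52 ± 0.20 (log2FC ± SE) with LPS (adjusted p = 0.00012) and was 2.26 ± 0.22 higher with dual treatment than with LPS alone (adjusted p = 3.28e-05). Against control, the dual-treated lungs were 0.74 ± 0.21 higher, just past the threshold of the edgeR quasi-likelihood test, Benjamini-Hochberg adjusted (adjusted p = 0.0436). That last call was lost without dual-treated mouse 5, where log2FC was 0.24 (adjusted p = 0.387, the edgeR quasi-likelihood test, Benjamini-Hochberg adjusted). It was also lost without control mouse 1, 2 or 4 (log2FC 0.63, 0.72 and 0.85). Leaving out LPS mouse 6, which is in neither compared group, ended it too (log2FC 0.74, adjusted p = 0.0593, the edgeR quasi-likelihood test, Benjamini-Hochberg adjusted). The same held without LPS mice 6 and 7 (0.74) and with the compared groups only (0.75).

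Stromal and endothelial cells are known sources of Cxcl12. The 6 endothelial markers, led by Cdh5, summed to 2573, 2849 and 2922 CPM in control mice, 1931, 1593 and 1538 CPM in LPS mice, and 2699 and 2675 CPM in dual-treated mice. With LPS, 4 of the 6 fell and none rose, and 4 of the 6 were higher with dual treatment than with LPS alone. The 6 fibroblast markers, led by Pdgfra, summed to 1065 to 1164 CPM in control, 856 to 1014 CPM in LPS and 1389 and 945 CPM in dual-treated lungs, and the 5 pericyte and smooth muscle markers, led by Pdgfrb, summed to 281 to 402 CPM over all mice. With LPS, 1 fibroblast marker rose and 3 fell, and 1 pericyte marker rose and 2 fell. With dual treatment against LPS, 3 fibroblast markers were higher, and of the pericyte markers 2 were higher and 3 lower. In tissue RNA, fewer cells of a type and less RNA per cell cannot be told apart, and the part of these cells in the Cxcl12 values was not tested.

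Cxcl13 (ENSMUSG00000023078, chromosome 5, 96104810 to 96108927), the B-cell-attracting ligand of Cxcr5, was low in control lungs. Its level was 9.15, 2.35 and 2.80 CPM in control mice 1, 2 and 4, then 34.6, 59.7 and 41.7 CPM in LPS mice 1, 6 and 7, and 156 and 53.7 CPM in dual-treated mice 2 and 5. All treated mice exceeded all controls, while dual-treated mouse 5 lay within the LPS range and mouse 2 far above it. In the edgeR quasi-likelihood test, Benjamini-Hochberg adjusted, Cxcl13 rose by 3.26 ± 0.55 with LPS (adjusted p = 0.000578) and by 4.46 ± 0.59 with dual treatment (adjusted p = 0.00124). The difference of 1.21 between dual-treated and LPS lungs did not pass (adjusted p = 0.0709, the edgeR quasi-likelihood test, Benjamini-Hochberg adjusted), with a 95% interval from 0.04 to 2.38.

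The size of the Cxcl13 change and its call against LPS depended on single mice and on the settings. The difference between dual treatment and LPS passed with library size only (1.53), without a filter (1.23) and with the compared groups only (1.19). Without control mouse 1, log2FC was 4.13 with LPS and 5.34 with dual treatment, and the difference between dual treatment and LPS then passed (log2FC 1.21, adjusted p = 0.0278, the edgeR quasi-likelihood test, Benjamini-Hochberg adjusted). Without dual-treated mouse 2, log2FC was 3.47 against control and 0.21 against LPS. Without mouse 5, the difference from LPS was 1.75 (adjusted p = 0.0215, the edgeR quasi-likelihood test, Benjamini-Hochberg adjusted). The 5 B-cell markers, led by Cd79b, summed to 76.7 CPM in dual-treated mouse 2, against 28.4 CPM in mouse 5, 39.9 to 44.2 CPM in control mice and 19.98 to 28.6 CPM in LPS mice. Of these 5, LPS lowered 2, and 2 were higher with dual treatment than with LPS alone. The 5 markers of follicular stroma and lymphoid tissue, led by Ltb, summed to 10.9 to 26.9 CPM over all mice, with 26.9 CPM in LPS mouse 6. Within that sum they moved apart: of the 4 tested, 2 rose and 1 fell with LPS, and 1 was higher and 2 lower with dual treatment than with LPS alone. The part of B cells and of follicular tissue in the Cxcl13 values was not tested.

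Cxcl14 (ENSMUSG00000021508, chromosome 13, 56436352 to 56444603) is a ligand made largely by epithelia and stroma. It measured 150.0, 180 and 175 CPM in control mice 1, 2 and 4, 405, 434 and 304 CPM in LPS mice 1, 6 and 7, and 173 and 118 CPM in dual-treated mice 2 and 5. Each LPS mouse was above every other mouse, while dual-treated mouse 2 lay among the controls and mouse 5 below them. Cxcl14 rose by 1.18 ± 0.18 with LPS (adjusted p = 0.00027) and was 1.39 lower with dual treatment than with LPS alone (log2FC -1.39 ± 0.20, adjusted p = 0.000358) in the edgeR quasi-likelihood test, Benjamini-Hochberg adjusted. Dual-treated and control lungs were not told apart (log2FC -0.21, 95% interval -0.65 to 0.23). LPS mouse 1, which held 2.97 CPM of squamous markers, had 405 CPM of Cxcl14, and without LPS mice 6 and 7 log2FC with LPS was 1.27. The part of squamous epithelium in the Cxcl14 values was not tested.

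Cxcl16 (ENSMUSG00000018920, chromosome 11, 70344517 to 70352620), the membrane-anchored ligand of Cxcr6 and a scavenger receptor of myeloid cells, was almost constant in control lungs. Levels were 83.9, 84.7 and 84.3 CPM in control mice 1, 2 and 4, 209, 167 and 140.0 CPM in LPS mice 1, 6 and 7, and 157 and 116 CPM in dual-treated mice 2 and 5. Every treated mouse was above every control, and the LPS and dual-treated mice overlapped. With the edgeR quasi-likelihood test, Benjamini-Hochberg adjusted, Cxcl16 rose by 1.03 ± 0.16 with LPS (adjusted p = 0.000318) and by 0.70 ± 0.17 with dual treatment (adjusted p = 0.0242). The second call was lost without control mouse 1, 2 or 4 (log2FC 0.69, 0.70 and 0.67) and without dual-treated mouse 2 (log2FC 0.44, adjusted p = 0.209, the edgeR quasi-likelihood test, Benjamini-Hochberg adjusted).

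Comparing dual treatment with LPS, Cxcl16 had a log2FC of -0.33 with a 95% interval from -0.72 to 0.064 under TMM and 0.010 with library size only. It passed without LPS mouse 7 (log2FC -0.47, adjusted p = 0.0313) or dual-treated mouse 2 (log2FC -0.58, adjusted p = 0.0293) in the edgeR quasi-likelihood test, Benjamini-Hochberg adjusted. Without LPS mice 6 and 7 it was -0.62 (adjusted p = 0.0195, the edgeR quasi-likelihood test, Benjamini-Hochberg adjusted). Exons of Cxcl16 overlap those of Med11 by 2213 bases and of Zmynd15 by 2132 bases on the opposite strand, and the strand setting of the counts is not stated, so reads of these genes may be mixed. Med11 was at 21.1 to 23.4 CPM in control, 18.6 to 19.1 CPM in LPS, and 29.7 and 32.1 CPM in dual-treated lungs, and Zmynd15 at 17.2 to 20.05 CPM, 11.6 to 17.3 CPM, and 45.9 and 22.5 CPM. With dual treatment both were called higher than control, with log2FC of 0.46 for Med11 and 0.89 for Zmynd15, as Cxcl16 was. Against LPS they were called higher too, at 0.71 and 1.23, where Cxcl16 was not called. Their part in the Cxcl16 counts was not tested. With LPS, Med11 fell by 0.25 and Zmynd15 was not called. Macrophages and dendritic cells are among the known sources of Cxcl16. The 5 monocyte and macrophage markers, led by Csf1r, summed to 167 to 205 CPM in control, 110.0 to 142 CPM in LPS and 449 and 567 CPM in dual-treated lungs, and all 5 were called higher in the dual-treated group against each other group. The 5 alveolar macrophage markers, led by Chil3, summed to 654 to 718, 573 to 954, and 1592 and 1448 CPM, in the same order of groups. With dual treatment 1 of the 5 was called higher than control, and 3 were called higher than LPS. A single marker made up 741 CPM of the sum in dual-treated mouse 2 and stood at 38.2 CPM in mouse 5. The 5 dendritic cell markers, led by Zbtb46, fell in LPS lungs from 119 to 127 CPM in control to 14.4 to 20.5 CPM, and stood at 71.5 and 69.8 CPM in dual-treated lungs. Their directions differed with dual treatment: 2 were higher and 1 lower than with LPS, and 3 were lower than in control. The part of these cells in the Cxcl16 values was not tested.

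Cx3cl1 (ENSMUSG00000031778, chromosome 8, 95498637 to 95509055), or fractalkine, is anchored on endothelium and epithelium and binds Cx3cr1. Its level was 45.5, 42.6 and 43.2 CPM in control mice 1, 2 and 4, 83.5, 59.3 and 54.4 CPM in LPS mice 1, 6 and 7, and 27.5 and 31.0 CPM in dual-treated mice 2 and 5. The 3 groups did not overlap: LPS mice were highest, control mice intermediate and dual-treated mice lowest. Cx3cl1 rose by 0.59 ± 0.15 with LPS (adjusted p = 0.00678) and was lower with dual treatment than with LPS alone (log2FC -1.17 ± 0.18, adjusted p = 0.000399) in the edgeR quasi-likelihood test, Benjamini-Hochberg adjusted. The rise with LPS missed the threshold with library size only (log2FC 0.29, adjusted p = 0.0623, the edgeR quasi-likelihood test, Benjamini-Hochberg adjusted). Leaving out LPS mice 6 and 7 gave a log2FC of 0.94 with LPS.

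Against control, Cx3cl1 in dual-treated lungs had a log2FC of -0.58 ± 0.17 and an adjusted p of 0.0488 in the edgeR quasi-likelihood test, Benjamini-Hochberg adjusted. This call was lost without control mouse 1, 2 or 4 (log2FC -0.55, -0.60 and -0.62), without LPS mouse 6 (-0.58) and without dual-treated mouse 2 or 5 (-0.53 and -0.70), with adjusted p between 0.0538 and 0.196 in the edgeR quasi-likelihood test, Benjamini-Hochberg adjusted. Its sign was negative in each. Exons of Cx3cl1 share 427 bases with the antisense transcript 1700121C10Rik. The 4 airway markers summed to 30622, 38925 and 36203 CPM in control mice, 67232, 56878 and 55497 CPM in LPS mice, and 23681 and 26295 CPM in dual-treated mice. Of the 4, LPS raised 3 and lowered 1, and 3 were lower with dual treatment than with LPS alone. The 6 alveolar type 2 markers summed to 29524 to 37137 CPM in control, 14289 to 25648 CPM in LPS, and 17448 and 28490 CPM in dual-treated lungs. With LPS 5 of these 6 fell and none rose, and 2 were higher with dual treatment than with LPS alone. Of the 6 endothelial markers 4 fell with LPS and none rose, and of the 6 fibroblast markers 1 rose and 3 fell. The part of these cell types in the Cx3cl1 and Cxcl14 values was not tested.

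Among the signalling receptors, Cxcr4 (ENSMUSG00000045382, chromosome 1, 128515936 to 128520044), the receptor of Cxcl12 on most leukocytes, was lower in dual-treated lungs than in both other groups. It measured 49.3, 43.6 and 44.8 CPM in control mice 1, 2 and 4, 47.4, 50.4 and 35.4 CPM in LPS mice 1, 6 and 7, and 24.1 and 28.9 CPM in dual-treated mice 2 and 5. The LPS mice spanned the control range, with mouse 7 below it, and the dual-treated mice were the lowest of the 8. Cxcr4 in dual-treated lungs had a log2FC of -0.79 ± 0.16 against control (adjusted p = 0.0106) and -0.74 ± 0.16 against LPS (adjusted p = 0.00332) in the edgeR quasi-likelihood test, Benjamini-Hochberg adjusted. Without dual-treated mouse 2 the first of these was -0.70 and no longer passed (adjusted p = 0.0815, the edgeR quasi-likelihood test, Benjamini-Hochberg adjusted).

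LPS and control lungs were not told apart in Cxcr4 (log2FC -0.05, 95% interval -0.36 to 0.27), although with library size only log2FC was -0.34 and passed (adjusted p = 0.043, the edgeR quasi-likelihood test, Benjamini-Hochberg adjusted). Its sign was positive without control mouse 1 (0.0033) or LPS mouse 7 (0.10). Neutrophils carry Cxcr4 as they age. The 8 neutrophil markers, led by S100a9, summed to 298, 245 and 166 CPM in control mice, 2686, 3514 and 2411 CPM in LPS mice, and 1931 and 2334 CPM in dual-treated mice, and all 8 rose with LPS. With dual treatment 5 of the 8 were higher than in control, and 2 were higher and 3 lower than with LPS. Their part in the Cxcr4 values was not tested.

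Cxcr6 (ENSMUSG00000048521, chromosome 9, 123635534 to 123640825), the Cxcl16 receptor of memory and resident T cells and of NK and innate-like T cells, had few counts. There were 51, 55 and 64 counts in control mice 1, 2 and 4, 13, 11 and 17 in LPS mice 1, 6 and 7, and 18 and 27 in dual-treated mice 2 and 5. These are 2.50, 2.58 and 2.94 CPM, 0.771, 0.635 and 0.949 CPM, and 0.817 and 1.19 CPM. All treated mice were below all controls, and the LPS and dual-treated mice overlapped. By the edgeR quasi-likelihood test, Benjamini-Hochberg adjusted, Cxcr6 fell by 1.76 ± 0.31 with LPS (adjusted p = 0.000818) and by 1.41 ± 0.35 with dual treatment (adjusted p = 0.0233). The second call was lost without control mouse 1, 2 or 4 (log2FC -1.46, -1.44 and -1.36) and without dual-treated mouse 2 (log2FC -1.20, adjusted p = 0.151, the edgeR quasi-likelihood test, Benjamini-Hochberg adjusted). Between dual-treated and LPS lungs log2FC was 0.35, with a 95% interval from -0.46 to 1.15.

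The 6 T-cell markers, led by Cd3d, summed to 16.6, 11.7 and 11.5 CPM in control mice, 14.7, 12.6 and 6.98 CPM in LPS mice, and 6.49 and 8.30 CPM in dual-treated mice. With LPS, 2 of the 6 fell, 1 rose and 3 did not pass. The 5 NK-cell markers, led by Prf1, summed to 4.04 to 5.73 CPM in control, 5.36 to 12.6 CPM in LPS, and 11.8 and 21.3 CPM in dual-treated lungs. With LPS, 1 of the 5 rose and 1 fell, and 2 were higher with dual treatment than with LPS alone. Cxcr6 lies within the span of Fyco1 on the opposite strand, with no shared exonic base, and the part of T and NK cells in its values was not tested.

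The atypical receptors had the highest fold changes with LPS of the 9 genes. Ackr3 (ENSMUSG00000044337, chromosome 1, 90131689 to 90144473), which removes Cxcl12, was at 44.4, 56.9 and 46.7 CPM in control mice 1, 2 and 4, at 1157, 851 and 775 CPM in LPS mice 1, 6 and 7, and at 258 and 150 CPM in dual-treated mice 2 and 5. The 3 groups did not overlap, and the dual-treated mice lay between the others. In the edgeR quasi-likelihood test, Benjamini-Hochberg adjusted, Ackr3 rose by 4.23 ± 0.25 with LPS, an 18.8-fold change (adjusted p = 1.33e-06), and by 2.05 ± 0.24 with dual treatment (adjusted p = 0.000747). It was lower with dual treatment than with LPS alone, with a log2FC of -2.19 ± 0.27 (adjusted p = 0.000116, the edgeR quasi-likelihood test, Benjamini-Hochberg adjusted).

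The ratio of Ackr3 to Cxcl12 within a library, each count divided by exonic length, does not depend on the scaling of libraries. It was 0.572, 0.641 and 0.430 in control mice 1, 2 and 4, 36.8, 26.4 and 24 in LPS mice 1, 6 and 7, and 2.33 and 0.765 in dual-treated mice 2 and 5. Ackr3 RNA per length thus exceeded Cxcl12 RNA per length in all LPS mice and in dual-treated mouse 2, and not in the controls or dual-treated mouse 5. The ratios are of RNA, depend on the lengths used, and do not give the ratio of the proteins. With the longest transcript as the length, the ratios were 0.312 to 0.466, 17.4 to 26.7, and 1.69 and 0.556. The ratio of Cxcr4 to Cxcl12 was 2.82, 2.19 and 1.84 in control mice, 6.70, 6.95 and 4.88 in LPS mice, and 0.965 and 0.659 in dual-treated mice. These ratios kept the 3 groups apart, with LPS highest and dual treatment lowest.

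Ackr1 (ENSMUSG00000037872, chromosome 1, 173159453 to 173161317), the Duffy antigen receptor, was near the limit of detection in control lungs. It had 3, 8 and 2 counts in control mice 1, 2 and 4, 422, 638 and 461 counts in LPS mice 1, 6 and 7, and 248 and 80 counts in dual-treated mice 2 and 5. As CPM these were 0.147, 0.375 and 0.0920, then 25.0, 36.8 and 25.7, and 11.3 and 3.51. The groups did not overlap, and dual-treated mice lay between the others, with mouse 2 higher than mouse 5. Ackr1 rose by 7.11 ± 0.57 with LPS (adjusted p = 5.66e-06) and by 5.13 ± 0.60 with dual treatment (adjusted p = 0.000693) in the edgeR quasi-likelihood test, Benjamini-Hochberg adjusted. With so few control counts the sizes are imprecise, with 95% intervals from 5.83 to 8.39 and from 3.78 to 6.48. Dual-treated lungs were lower than LPS lungs (log2FC -1.98 ± 0.45, adjusted p = 0.00412, the edgeR quasi-likelihood test, Benjamini-Hochberg adjusted).

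Single mice moved the size of the Ackr1 change and not its call. Without control mouse 2, log2FC was 7.87 with LPS and 5.88 with dual treatment. Without dual-treated mouse 2, it was 4.03 against control and -3.08 against LPS. Exons of Ackr1 share 361 bases with Cadm3 on the same strand and 228 bases with the antisense transcript Gm70583. Cadm3 had 16, 45 and 22 counts in control mice, 20, 55 and 78 in LPS mice, and 55 and 12 in dual-treated mice. These exceed the Ackr1 counts in each control mouse and lie below them in each treated mouse, and the part of shared reads was not tested.

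Ackr1 is carried by venular endothelium and red cells. The 5 markers of venous endothelium, led by Vwf, summed to 774, 961 and 945 CPM in control mice, 611, 438 and 510 CPM in LPS mice, and 591 and 828 CPM in dual-treated mice. All 5 were called with LPS, 2 upward and 3 downward, and all 5 between dual treatment and LPS, 3 higher and 2 lower. The 5 erythroid markers, led by Hbb-bs, summed to 1506, 3354 and 2422 CPM in control mice, 2748, 1666 and 1265 CPM in LPS mice, and 375 and 341 CPM in dual-treated mice. Of the 5, LPS raised 1, and all 5 were lower with dual treatment than with LPS alone. The part of venous endothelium and of red cells in the Ackr1 values was not tested.

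Ordered by level per kilobase of exon, the 9 genes changed places between groups. In control lungs Cxcl14 led with a mean of 49.1 CPM per kilobase, followed by Cxcr4 at 25.2, Cxcl16 at 16.5, Cxcl12 at 11.3 and Cx3cl1 at 11.02 CPM per kilobase. Then came Ackr3 at 6.09, Cxcl13 at 4.15, Cxcr6 at 1.38 and Ackr1 at 0.146 CPM per kilobase. Of these neighbours, Cxcl12 and Cx3cl1 overlapped between mice, as did Ackr3 and Cxcl13.

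In LPS lungs Ackr3, at 114.5 CPM per kilobase, and Cxcl14, at 111 CPM per kilobase, stood first and overlapped. Cxcl13 at 39.4, Cxcl16 at 33.5, Cxcr4 at 24.4, Ackr1 at 20.8 and Cx3cl1 at 16.6 CPM per kilobase followed, each overlapping the next. Cxcl12 at 3.95 and Cxcr6 at 0.405 CPM per kilobase were last and apart. In dual-treated lungs Cxcl13 was first at 91.1 CPM per kilobase, with 136 in mouse 2 and 46.7 in mouse 5, and overlapped Cxcl14 at 42.5 CPM per kilobase. Cxcl16, Ackr3, Cxcl12 and Cxcr4 formed an overlapping run from 26.7 to 14.5 CPM per kilobase. Cx3cl1 at 7.37 and Ackr1 at 5.26 CPM per kilobase overlapped, and Cxcr6 was last at 0.517 CPM per kilobase. With the longest transcript as the length, some overlapping genes changed places. In LPS lungs Cxcl14 then stood above Ackr3, Cxcl16 above Cxcl13 and Ackr1 above Cxcr4, and in dual-treated lungs Cxcl12 stood above Ackr3.

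A list of 26 other genes of these systems held receptors, proteases that cut the ligands, further ligands, transcription factors and signalling parts. With LPS 21 of the 26 were called, 15 upward and 6 downward, and between dual-treated and LPS lungs 19 were called, 7 higher and 12 lower. Between dual-treated and control lungs 8 were called, 6 higher and 2 lower, a count that fell to 2 without control mouse 1 or 2 or dual-treated mouse 2, and to 3 without control mouse 4. The median log2FC of the list was 0.60, -0.27 and 0.28 in these comparisons. The percentages of all genes called, given above, were 66.5%, 59.1% and 16.1%. Without control mouse 1, 2 or 4 the last was 9.70%, 8.43% and 9.28%. The counts of the list without a control mouse lay near that share and say little about the list.

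**Figure D3:**
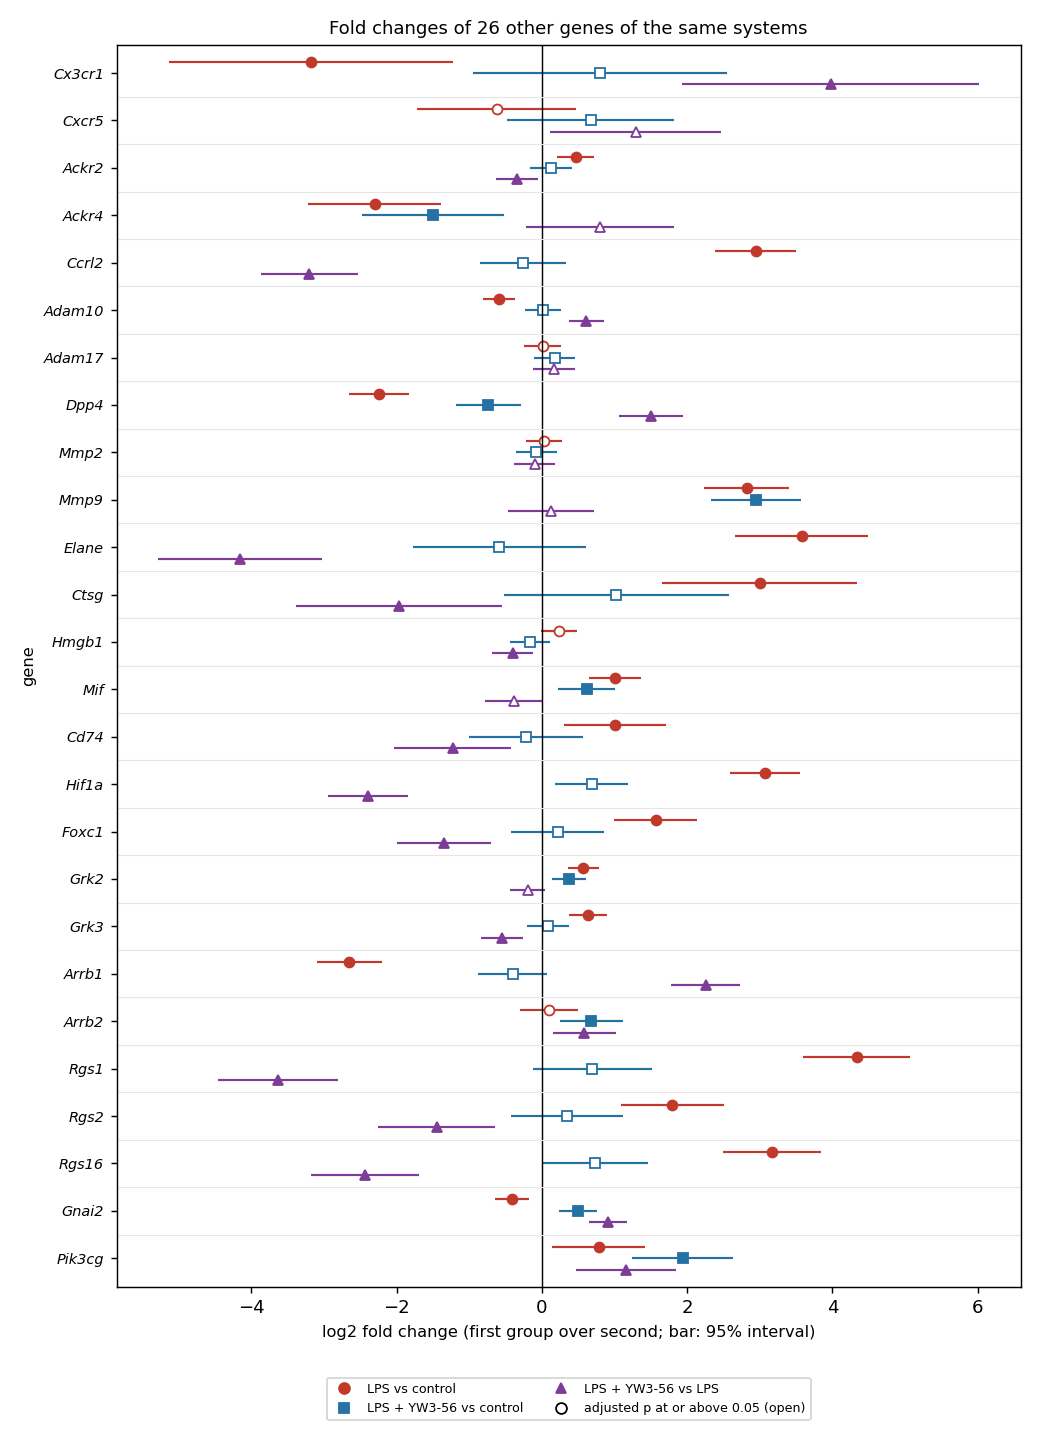
The log2FC (horizontal axis) of the 26 other genes of these systems in the 3 comparisons, with 95% intervals as bars, filled where the adjusted p-value was below 0.05. Rgs1 had the highest log2FC with LPS in the list, 4.33, and Cx3cr1 the lowest, -3.18.

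Of the receptors in that list, Cx3cr1, the Cx3cl1 receptor of patrolling monocytes and NK cells, was at 6.21, 6.10 and 6.71 CPM in control mice 1, 2 and 4, 1.25, 0.75 and 0.11 CPM in LPS mice 1, 6 and 7, and 1.77 and 20.3 CPM in dual-treated mice 2 and 5. LPS mice were all below the controls, and the dual-treated mice lay on either side of them. Cx3cr1 fell by 3.18 ± 0.87 with LPS (adjusted p = 0.00927) and was 3.97 higher with dual treatment than with LPS alone (adjusted p = 0.00453) in the edgeR quasi-likelihood test, Benjamini-Hochberg adjusted. Without dual-treated mouse 5 the latter was 1.32 and did not pass (adjusted p = 0.149, the edgeR quasi-likelihood test, Benjamini-Hochberg adjusted), and without mouse 2 it was 4.83. Without LPS mouse 1 the values were -3.87 and 4.66. Without LPS mice 6 and 7 they were -2.34 and 3.14, and neither passed (adjusted p = 0.152 and 0.0825, the edgeR quasi-likelihood test, Benjamini-Hochberg adjusted). Against control, dual-treated lungs had a log2FC of 0.80 (95% interval -0.95 to 2.55), which was -1.87 without mouse 5 and 1.65 without mouse 2. The 3 patrolling monocyte markers, led by Spn, summed to 10.1 to 13.3 CPM in control, 23.7 to 44.6 CPM in LPS, and 73.1 and 177 CPM in dual-treated mice 2 and 5. With LPS 2 of the 3 rose, while the other was below every control in each LPS mouse and was not called (log2FC -1.49). All 3 were called higher with dual treatment than in either other group. The part of patrolling monocytes in the Cx3cr1 values was not tested.

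Cxcr5, the Cxcl13 receptor of B cells and follicular T cells, was not called in any comparison with all mice, TMM and the edgeR filter, and stood at 2.202, 3.05 and 3.03 CPM in control, 2.73, 1.44 and 1.23 CPM in LPS, and 6.94 and 1.89 CPM in dual-treated mice 2 and 5. Mouse 2 was the highest of the 8, as it was for Cxcl13 and the B-cell markers. Against LPS, dual treatment gave a log2FC of 1.29, with a 95% interval from 0.11 to 2.47 (adjusted p = 0.0574, the edgeR quasi-likelihood test, Benjamini-Hochberg adjusted). It was 0.052 without dual-treated mouse 2, and it passed without mouse 5 (1.93) and without LPS mouse 1 (1.71). It also passed with DESeq2 (1.25), with library size only (1.65), without a filter (1.32) and with at least 10 counts in every library (1.32). Leaving out LPS mice 6 and 7 gave 0.68, which did not pass.

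Other receptors moved in different ways. Ccrl2, which presents chemerin on activated cells without signalling, was at 39.8 to 49.4 CPM in control, 248 to 491 CPM in LPS, and 33.8 and 39.7 CPM in dual-treated lungs. In the edgeR quasi-likelihood test, Benjamini-Hochberg adjusted, it rose by 2.94 ± 0.25 with LPS (adjusted p = 7.8e-06) and was lower with dual treatment than with LPS alone, with a log2FC of -3.20. Ackr4, the scavenger of Ccl19 and Ccl21, fell by 2.30 with LPS, from 3.77 to 5.40 CPM in control to 0.77 to 0.98 CPM. In dual-treated mice 2 and 5 it was at 0.77 and 2.37 CPM, and its call against control (log2FC -1.50, adjusted p = 0.0457, the edgeR quasi-likelihood test, Benjamini-Hochberg adjusted) was lost without control mouse 1, 2 or 4 (-1.61, -1.34 and -1.57), LPS mouse 6 or dual-treated mouse 2 (-0.94), and was -2.55 without mouse 5. It was also lost with library size only (-1.47), with the compared groups only (-1.49) and without LPS mice 6 and 7. Ackr2, the scavenger of inflammatory CC chemokines, rose by 0.47 with LPS, a call lost with library size only (log2FC 0.18) and without LPS mice 6 and 7 (log2FC 0.40). Against LPS, its log2FC with dual treatment was -0.34, a call lost without any 1 control mouse (-0.34, -0.34 and -0.37), LPS mouse 6 or 7 (-0.38 and -0.29) or dual-treated mouse 2 (-0.22), and without LPS mice 6 and 7 (-0.28). Leaving out dual-treated mouse 5 gave -0.53. With library size only it was -0.02 and not called, and the call was also lost without a filter (-0.32), with at least 10 counts in every library (-0.32) and with the compared groups only (-0.36).

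Among proteases that cut Cxcl12, Dpp4 fell by 2.24 with LPS, from 106 to 118 CPM in control to 20.5 to 27.8 CPM, and was at 50.3 and 82.3 CPM in dual-treated lungs, 1.504 above LPS in log2FC. Its log2FC of -0.74 against control was called, and was not without control mouse 1, 2 or 4 (-0.76, -0.77 and -0.71) or dual-treated mouse 2 (-0.46). The neutrophil serine proteases Elane and Ctsg rose by 3.58 and 3.00 with LPS. Elane was at 0.28 to 0.78 CPM in control, 4.69 to 6.99 CPM in LPS, and 0.45 and 0.22 CPM in dual-treated lungs, so that dual-treated mouse 2 lay within the control range and mouse 5 below it. Its log2FC against LPS was -4.16, and -4.78 without dual-treated mouse 2. Without control mouse 1 the Ctsg rise was 3.99, and its lower level in dual-treated than in LPS lungs (log2FC -1.97) was not called without LPS mouse 6 (-1.81) or without dual-treated mouse 2 or 5 (-2.02 and -1.97), nor without LPS mice 6 and 7 (-1.95). Mmp9 rose by 2.82 with LPS and by 2.95 with dual treatment (adjusted p = 1.26e-05 and 0.000201, the edgeR quasi-likelihood test, Benjamini-Hochberg adjusted), and Mmp2 was not called in any comparison. Of the sheddases that release Cxcl16 and Cx3cl1, Adam10 fell by 0.60 with LPS and was 0.61 higher with dual treatment than with LPS alone, while Adam17 was not called in any comparison.

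Signal brakes, transcription factors and G protein parts were listed too. Rgs1 and Rgs16, which shorten G protein signalling, rose by 4.33 and 3.17 with LPS. Rgs1 was at 1.76 to 1.98 CPM in control, 29.7 to 48.2 CPM in LPS, and 4.31 and 1.71 CPM in dual-treated lungs. Arrb1, a beta-arrestin that uncouples receptors and serves Ackr3 uptake, fell by 2.65 with LPS, from 431 to 437 CPM in control to 67.6 to 70.7 CPM, and stood at 230 and 429 CPM in dual-treated mice 2 and 5. Hif1a, a transcription factor that induces Cxcl12 and Cxcr4 in hypoxia, rose by 3.08 with LPS, from 41.1 to 46.4 CPM in control to 329 to 448 CPM, and was at 90.2 and 51.3 CPM in dual-treated lungs. Foxc1, a factor of Cxcl12-rich stromal cells, rose by 1.57 with LPS. Against LPS, dual-treated lungs had log2FC of -3.64 for Rgs1, -2.44 for Rgs16, 2.26 for Arrb1, -2.39 for Hif1a and -1.35 for Foxc1, all called, and the value for Rgs1 was -4.47 without dual-treated mouse 2. Gnai2, the inhibitory G protein subunit of chemokine receptors, fell by 0.41 with LPS, a call lost without LPS mice 6 and 7 (log2FC -0.33), and was 0.92 higher with dual treatment than with LPS alone.

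Gnai2 was also called higher in dual-treated lungs than in control (log2FC 0.50), though not without control mouse 1 or 2 (0.46 and 0.49) or dual-treated mouse 2 or 5 (0.47 and 0.48). Pik3cg, the PI3-kinase subunit that G proteins activate, was at 5.35 to 7.44 CPM in control, 9.60 to 11.9 CPM in LPS, and 34.3 and 14.8 CPM in dual-treated mice 2 and 5. The 3 groups did not overlap. Its log2FC with dual treatment was 1.94 against control (adjusted p = 0.00327) and 1.16 against LPS (adjusted p = 0.00921) in the edgeR quasi-likelihood test, Benjamini-Hochberg adjusted. Without dual-treated mouse 2 these were 1.18, still called, and 0.40, not called. With LPS it rose by 0.78, a call lost without control mouse 2 or 4 (0.66 and 0.78) or LPS mouse 1 or 6 (0.73 and 0.75) and with library size only (0.49). Without LPS mice 6 and 7, neither 0.90 with LPS nor 1.04 for dual treatment against LPS passed.

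Of the other signal brakes, Rgs2 rose by 1.79 with LPS and had a log2FC of -1.45 in dual treatment against LPS. The receptor kinases Grk2 and Grk3 rose by 0.57 and 0.63 with LPS, and Grk3 was 0.55 lower with dual treatment than with LPS (log2FC -0.55), a call lost with library size only (-0.23). Grk2 in dual treatment against control was called at 0.37, and was not without any 1 control mouse (0.35, 0.39 and 0.34), LPS mouse 6 (0.37) or dual-treated mouse 2 or 5 (0.40 and 0.27), nor without a filter (0.37). Arrb2, the second beta-arrestin, was at 60.1 to 67.9 CPM in control, 57.4 to 93.6 CPM in LPS, and 99.6 and 109 CPM in dual-treated lungs. LPS and control overlapped, and both dual-treated mice were above every other mouse. Against control its log2FC was 0.68, a call lost without control mouse 1, 2 or 4 (0.71, 0.62 and 0.68) or dual-treated mouse 2 or 5 (0.72 and 0.58). Against LPS it was 0.58, lost without control mouse 4 (0.55), LPS mouse 1 or 7 (0.46 and 0.45) or dual-treated mouse 2 or 5 (0.62 and 0.48) and with the compared groups only (0.56).

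Further ligands and a co-receptor of the Cxcr4 and Ackr3 system were Mif, Hmgb1 and Cd74. Mif rose by 1.01 with LPS and was called at 0.62 in dual treatment against control, but not without control mouse 1, 2 or 4 (0.56, 0.57 and 0.70) or dual-treated mouse 2 or 5 (0.57 and 0.60). Cd74, which binds Mif, rose by 1.01 with LPS, a call lost without control mouse 2 (0.91) or LPS mouse 1 (0.66) and with library size only (0.70). Against LPS, Cd74 in dual treatment had a log2FC of -1.23, which was -1.83 without mouse 2 and -0.83, not called, without mouse 5. Hmgb1 was called only in dual treatment against LPS (log2FC -0.40), and not there without dual-treated mouse 2 or 5 (-0.40 and -0.46), without LPS mice 6 and 7 (-0.36) or with library size only (-0.078).

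The genes nearest in pattern to each member were found among tested genes with a mean of at least 5 CPM, by the root mean square difference of centred log2 CPM over the 8 libraries. For Ackr3 these were Cd14, Isg15 and Fbxw10, with differences of 0.178, 0.193 and 0.241. For Ackr1 they were Orm1, Il1r2 and Lcn2 (0.366, 0.485 and 0.534), and for Cxcl13 they were Itgam, Slfn1 and Pira12 (0.539, 0.564 and 0.572). For Cxcl12 the nearest were Dnase1l1, Capn5 and Hacd4 (0.154, 0.199 and 0.203), and for Cxcl14 Ube2e2, Gpc4 and Art3 (0.142, 0.157 and 0.163). For Cxcl16 they were Sftpd, Ran and Psmb2 (0.0877, 0.0928 and 0.103), and for Cx3cl1 Gja1, Arl4c and Mylip (0.0831, 0.0946 and 0.0976). For Cxcr4 they were Gabarapl1, Mfap1b and Dyrk2 (0.0809, 0.103 and 0.112), and for Cxcr6 Prex2, Rab27b and Ltbp2 (0.114, 0.131 and 0.15). The members' own root mean square about their mean was 0.367 for Cxcr4, 0.476 for Cx3cl1, 0.478 for Cxcl16 and 0.65 for Cxcl14. It was 0.776 for Cxcr6, 0.934 for Cxcl12, 1.85 for Ackr3, 2.04 for Cxcl13 and 2.99 for Ackr1. A smaller difference is thus not a closer match between members.

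Promoter windows of 250 bases before to 50 bases after the gene start, from RefSeq on GRCm38.p6, matched 8 of the 9 genes, all but Cxcl16. Each was searched on both strands for 4 motifs: an NF-kB type (GGGNNNNNCC), an interferon-stimulated response element (GAAANNGAAA), a gamma-activated site (TTCNNNGAA) and a hypoxia response core (ACGTG). Among all 32841 windows, 50.8%, 3.44%, 8.30% and 19.6% held them. Cxcl14 held both interferon-type motifs, and Cxcl12 and Cxcl13 each held 1 match to the NF-kB type, a motif that most windows hold. None of the 4 motifs was in the windows of Cxcr4, Ackr3, Cxcr6, Cx3cl1 or Ackr1. The 3 windows with a match are shown because these ligands differed in direction with LPS, with matches in capitals; a match describes letters and not a bound site.

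Cxcl12, chr6:117168285-117168584, plus strand: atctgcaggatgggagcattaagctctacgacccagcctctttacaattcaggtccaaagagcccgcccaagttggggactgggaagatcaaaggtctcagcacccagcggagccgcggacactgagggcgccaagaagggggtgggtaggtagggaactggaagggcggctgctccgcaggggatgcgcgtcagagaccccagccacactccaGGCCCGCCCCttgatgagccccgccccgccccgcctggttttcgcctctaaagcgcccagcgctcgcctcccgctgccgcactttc
Cxcl13, chr5:95956689-95956988, plus strand: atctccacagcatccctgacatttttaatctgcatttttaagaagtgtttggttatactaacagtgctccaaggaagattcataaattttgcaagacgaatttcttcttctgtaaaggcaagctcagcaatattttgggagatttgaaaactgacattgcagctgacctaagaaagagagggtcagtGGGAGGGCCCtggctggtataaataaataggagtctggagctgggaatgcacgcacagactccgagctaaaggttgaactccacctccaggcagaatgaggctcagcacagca
Cxcl14, chr13:56296502-56296801, minus strand: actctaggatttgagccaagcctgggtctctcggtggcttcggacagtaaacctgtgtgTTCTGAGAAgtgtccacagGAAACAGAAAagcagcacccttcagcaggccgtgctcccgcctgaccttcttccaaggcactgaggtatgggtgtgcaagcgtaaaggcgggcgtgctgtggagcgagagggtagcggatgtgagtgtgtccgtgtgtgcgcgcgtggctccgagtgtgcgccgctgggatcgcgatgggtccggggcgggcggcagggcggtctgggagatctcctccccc

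In the Cxcl14 window the capitals are TTCTGAGAA, the gamma-activated type, and GAAACAGAAA, the interferon-stimulated type. In the Cxcl12 window the match is GGCCCGCCCC, read on the opposite strand, and in the Cxcl13 window it is GGGAGGGCCC.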

How the data were processed

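The raw counts per gene deposited by the authors came from trimmed reads, HISAT2 2.2.1 alignment to GRCm39 and featureCounts 2.0.1. Annotation release, strand and multi-mapper settings are not given in the sources used. GENCODE M39 gave symbols to 54749 of 55416 genes.

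Counts were fitted in R 4.3.3 with edgeR 4.0.16 (TMM, filterByExpr, quasi-likelihood test, 1 group factor, 5 residual degrees of freedom), with Benjamini-Hochberg adjustment over 18560 genes. SE and 95% intervals came from log2FC and its F statistic. DESeq2 1.42.0, the authors' tool, was an alternative. On simulated counts it made more false calls than its threshold allows. Named are all members, pathway genes called or defining a system, the leading gene of each marker list and the 3 nearest genes by pattern, besides Adam17, Mmp2 and overlapping genes, chosen after their values were seen. Members and lists were chosen with earlier results of these data known.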

Additional observations from a re-analysis of the deposited data

How the results depend on the processing

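Over 429 single member values under the alternatives, 385 kept their direction and their side of the threshold, 29 lost the call, 10 gained it and 5 changed sign. The study's criterion, applied to the main fit without a refit, gave 27 of these values, with 6 of the losses and 1 of the gains. Of all 29 losses, 26 were in dual treatment against control. In that comparison 16.1% of all tested genes were called, and 10.5% met the study's criterion. The share called was 8.43% to 9.70% without 1 control mouse and 15.7% to 19.7% without 1 LPS mouse. There the count of members called was 8 and fell to 4 by the study's criterion, with a range from 4 to 8 as each mouse was left out, and the pathway count was 8 and fell to 3, with a range from 2 to 9. With LPS against control, 7 or 8 members were called under each alternative. Sign changes concerned uncalled values. They were Cxcl14 in dual treatment against control at 0.01388 without dual-treated mouse 5 (-0.5403 without mouse 2), Cxcl16 in dual treatment against LPS at 0.01023 with library size only, and Cxcr4 in LPS against control at 0.003262 without control mouse 1, 0.1009 without LPS mouse 7 (-0.1414 without mouse 6) and 0.05209 without LPS mice 6 and 7. In dual treatment against control, Cx3cr1 was at -1.867 without dual-treated mouse 5 and 1.646 without mouse 2, and Cxcr5 at 1.297 and -0.5783. The cause was not tested.

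Library size as the only scaling moved the median of all genes to -0.294 for LPS against control and to 0.383 for dual treatment against LPS. Over all genes, 7450, 1944 and 6554 met the study's criterion, applied to edgeR results, where adjusted p called 12346, 2997 and 10960 (LPS against control, dual treatment against control, dual treatment against LPS), and leaving out each mouse gave 1220 to 3601 calls for dual treatment against control. The filter of at least 10 counts in every library dropped Ackr1. Where 1 mouse was left in a group, it was assumed to vary like the other groups. The study divided its mice at random into the groups and gives no pairing between them, so no paired analysis was made. Cxcr6 and control Ackr1 had too few counts for a precise fold change. The same limit applies among the other genes to Ctsg and Cx3cr1, whose SE with LPS were 0.60 and 0.87, and to Elane and Ackr4.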

Other observations

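The 4 mesothelial markers, led by Msln, summed to 402 to 497 CPM in control, 292 to 386 CPM in LPS, and 342 and 522 CPM in dual-treated lungs. The 4 alveolar type 1 markers, led by Ager, summed to 3424 to 3653 CPM, 1800 to 3130 CPM, and 1838 and 2455 CPM in the same order of groups. These 4 differed in direction: 2 fell with LPS, and with dual treatment 2 were higher and 1 lower than with LPS alone. Against control, 2 were lower with dual treatment. The within-library ratio of Cxcr6 to Cxcl16 per exonic length was 0.0787, 0.0806 and 0.0923 in control mice, 0.00978, 0.0101 and 0.0179 in LPS mice, and 0.0138 and 0.0269 in dual-treated mice, so that all treated mice were below all controls. The ratio of Cx3cr1 to Cx3cl1 was 0.116 to 0.132 in control, 0.00175 to 0.0127 in LPS, and 0.0548 and 0.558 in dual-treated mice 2 and 5, which lay on either side of the controls.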
